A study of Mus musculus with 19 samples.

Results

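Transcript levels of 8 genes of the hedgehog, Wnt and activin pathways were measured in the mouse hippocampus. The genes were Shh, Gli1, Ptch1, Lgr5, Sfrp2, Sfrp1, Acvr2a and Axin2. They were read through the 11 array probes that name their RefSeq transcripts, and all 8 were among the 25599 genes tested. The set was chosen by the measured difference in level between APP/PS1 vehicle and WT mice, in which Lgr5, Shh and Sfrp2 stood out. That contrast is therefore described here without a test. The UA arrays were not part of the choice, but the vehicle and WT arrays they are set against were.

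Each of 19 arrays held the hippocampal RNA of 1 sample, and the labels name 3 groups. APP/PS1 mice given urolithin A (UA, n = 6) received 200 mg/kg/day by gavage in DMSO, starting at 6 months and ending at 8 months of age. APP/PS1 mice given vehicle (n = 7) and wild-type (WT) littermates given vehicle (n = 6) were of the same age and shared the vehicle. UA is a product of gut bacteria from dietary ellagitannins. APP/PS1 mice carry mutant human amyloid precursor protein and presenilin transgenes, which in this strain are driven by the prion protein promoter, and so the model is one of transgene overexpression from that promoter.

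Hedgehog and Wnt proteins are secreted signals that pattern tissue in the embryo and act on stem cells in the adult. Sonic hedgehog, encoded by Shh, binds the receptor Patched, encoded by Ptch1, which releases Smoothened and activates the Gli transcription factors, and Gli1 and Ptch1 are themselves targets of the pathway. Wnt proteins bind Frizzled receptors and stabilise beta-catenin, and R-spondins strengthen that signal through Lgr receptors such as Lgr5. Secreted Frizzled-related proteins (Sfrp1, Sfrp2) bind Wnts outside the cell, and Axin2 is both a scaffold of the complex that degrades beta-catenin and a Wnt target gene. Acvr2a encodes a receptor for activins. In the adult hippocampus both hedgehog and Wnt signals act on neural progenitors of the dentate gyrus.

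RefSeq promoter windows, from 250 bases before to 50 bases after the transcription start (GRCm38.p6), were found for 4 of the 8 genes, namely Ptch1, Sfrp2, Acvr2a and Axin2. The windows of the 3 of these genes whose mean level lay in the order APP/PS1 vehicle, UA, WT from lowest to highest are printed here 5′ to 3′. The Sfrp2 window lies at chr3:83766071-83766370 on the plus strand, the Acvr2a window at chr2:48813859-48814158 on the plus strand, and the Axin2 window at chr11:108920099-108920398 on the plus strand. Capitals mark GC boxes (GGGCGG) in Acvr2a and Axin2, on either strand, and an octamer (ATTTGCAT) in Sfrp2.
Sfrp2: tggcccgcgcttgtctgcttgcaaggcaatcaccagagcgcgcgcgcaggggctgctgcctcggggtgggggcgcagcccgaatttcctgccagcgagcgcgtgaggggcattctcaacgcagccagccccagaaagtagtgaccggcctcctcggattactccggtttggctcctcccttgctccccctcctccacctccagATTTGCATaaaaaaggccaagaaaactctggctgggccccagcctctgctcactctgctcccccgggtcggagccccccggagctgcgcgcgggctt
Acvr2a: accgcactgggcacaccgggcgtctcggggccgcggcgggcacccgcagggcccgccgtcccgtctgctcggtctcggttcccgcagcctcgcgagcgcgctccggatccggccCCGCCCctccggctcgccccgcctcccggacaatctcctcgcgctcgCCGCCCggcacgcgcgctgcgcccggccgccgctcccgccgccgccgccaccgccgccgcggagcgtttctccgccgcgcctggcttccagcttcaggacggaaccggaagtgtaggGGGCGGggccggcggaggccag
Axin2: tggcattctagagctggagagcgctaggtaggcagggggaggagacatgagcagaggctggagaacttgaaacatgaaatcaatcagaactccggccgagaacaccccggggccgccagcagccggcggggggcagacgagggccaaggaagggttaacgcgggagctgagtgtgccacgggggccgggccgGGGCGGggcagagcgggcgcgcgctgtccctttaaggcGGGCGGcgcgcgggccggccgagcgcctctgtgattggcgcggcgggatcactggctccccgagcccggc

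The Acvr2a window held 3 GC boxes at 80.3% GC and the Axin2 window held 2 at 70.0% GC. The Sfrp2 window held no GC box at 66.0% GC, and its octamer stood directly before an A-rich run. GC boxes occurred in 35.7% of the 32851 promoter windows of the same length, so they are common. The octamer, which was looked for after the sequence had been read, occurred in 1.74%. Both strands were also searched for the Gli site GACCACCCA (0.253% of windows) and for the TCF sites CTTTGAT and CTTTGTT (9.33%), and neither was in any of the 4 windows. The motifs marked did not overlap, and a match here is a description of letters only.

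In the text that follows, 3 values given for a group are its lowest, median and highest array. Each level is the green signal of the probe on a log2 scale, from which the 75th percentile of its array was subtracted. A level of 0 is therefore the 75th percentile of that array, and a difference of 1 is a doubling. Differences, their standard errors (SE) and adjusted p-values come from 1 limma fit over the 19 arrays. Tests were 2-sided, p-values were adjusted by the Benjamini-Hochberg method across the 25599 genes, and those under 0.05 after adjustment passed. Levels of different probes are not comparable with each other, so each gene is compared with itself across groups. Each array was counted as 1 mouse, because the design states as many mice per group as there were arrays.

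The 10 genes of the granule and pyramidal cell list were well above background on every array. So were all tested genes of the thalamus (6), striatum (7) and neocortex and subiculum (7) lists. Detection of these lists therefore does not tell hippocampus from neighbouring tissue. WT replicate 1 stood apart on the septum and hypothalamus list, with a mean level of -0.87, where the other WT arrays lay at -2.75 to -2.41. UA arrays lay there at -2.68 to -2.27 and vehicle arrays at -2.67 to -2.15. The same WT array had the highest Shh level of all arrays, at -2.51, and a link was not tested. The Prnp signal, whose promoter the transgenes share, ran from 7.77 to 8.45 on UA arrays and from 7.92 to 8.36 on APP/PS1 vehicle arrays. It was 6.14 to 6.49 on WT arrays, and no APP/PS1 array overlapped a WT array. Whether that signal came from the endogenous gene or from the transgenes was not tested. The 75th percentile of signal was 901.8 to 1393.9 intensity units on UA arrays, 663.9 to 1416.9 on vehicle arrays and 1167.4 to 1776 on WT arrays. Slide 1 held the 6 WT and 2 of the vehicle arrays, slide 2 held 5 vehicle and 3 UA arrays, and slide 3 held the other 3 UA arrays. Sex, read from Xist against Y-linked genes, was female on 1 of 6 UA, 3 of 7 vehicle and 1 of 6 WT arrays. Choroid plexus markers split the arrays into 2 sets. Their mean level over 13 genes was 1.81 to 3.54 on 10 arrays, namely 4 UA, 5 vehicle and 1 WT, and -4.28 to -0.82 on the other 9. The choroid plexus is the secretory epithelium of the ventricle beside the hippocampus.

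Shh, Lgr5, Sfrp2, Acvr2a and Axin2 shared one order of group means, lowest in APP/PS1 vehicle mice, then UA mice, then WT mice. Their UA means lay nearer to the WT mean than to the vehicle mean. Gli1 had the same order of means, with a smaller difference between UA and vehicle than those 5 genes. Ptch1 did not follow it, and Sfrp1 was lowest in WT mice. The mean level of 10 interneuron markers had the order of the 5 genes, at 3.27 in vehicle, 3.41 in UA and 3.55 in WT mice. So did the neocortex and subiculum list, at 0.25, 0.57 and 0.62. The striatum list had 0.27, 0.36 and 0.36, and the remaining marker lists had other orders. No interneuron, neocortex or striatum marker passed the test. Vehicle replicate 7 had the lowest interneuron (2.67) and neocortex and subiculum (-0.58) levels. A link to the 8 genes was not tested. Between UA and WT mice none of the 8 genes passed the limma test, where 0.0898% of all genes did, and none was without overlap, where 0.598% of all genes were higher and 0.441% lower. Against APP/PS1 vehicle mice, UA mice had a mean level 2.09-fold higher for Lgr5, 1.57-fold for Shh, 1.47-fold for Sfrp2, 1.38-fold for Acvr2a and 1.2-fold for Axin2. None of the 8 genes passed the limma test between UA and APP/PS1 vehicle, where 0% of all genes did. No gene of the 8 had UA arrays that all lay above or all below the vehicle arrays, where 0.301% of all genes were higher and 0.547% lower without overlap. At an unadjusted p under 0.05, 5 of the 8 differed in either direction, as did 3961 of all 25599 genes. The 5 were all higher in UA, and the genes as a whole were not counted by direction at this threshold. The vehicle arrays entered both the choice of these genes and this comparison, so the 2 differences are not independent of each other.

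**Figure D1:**
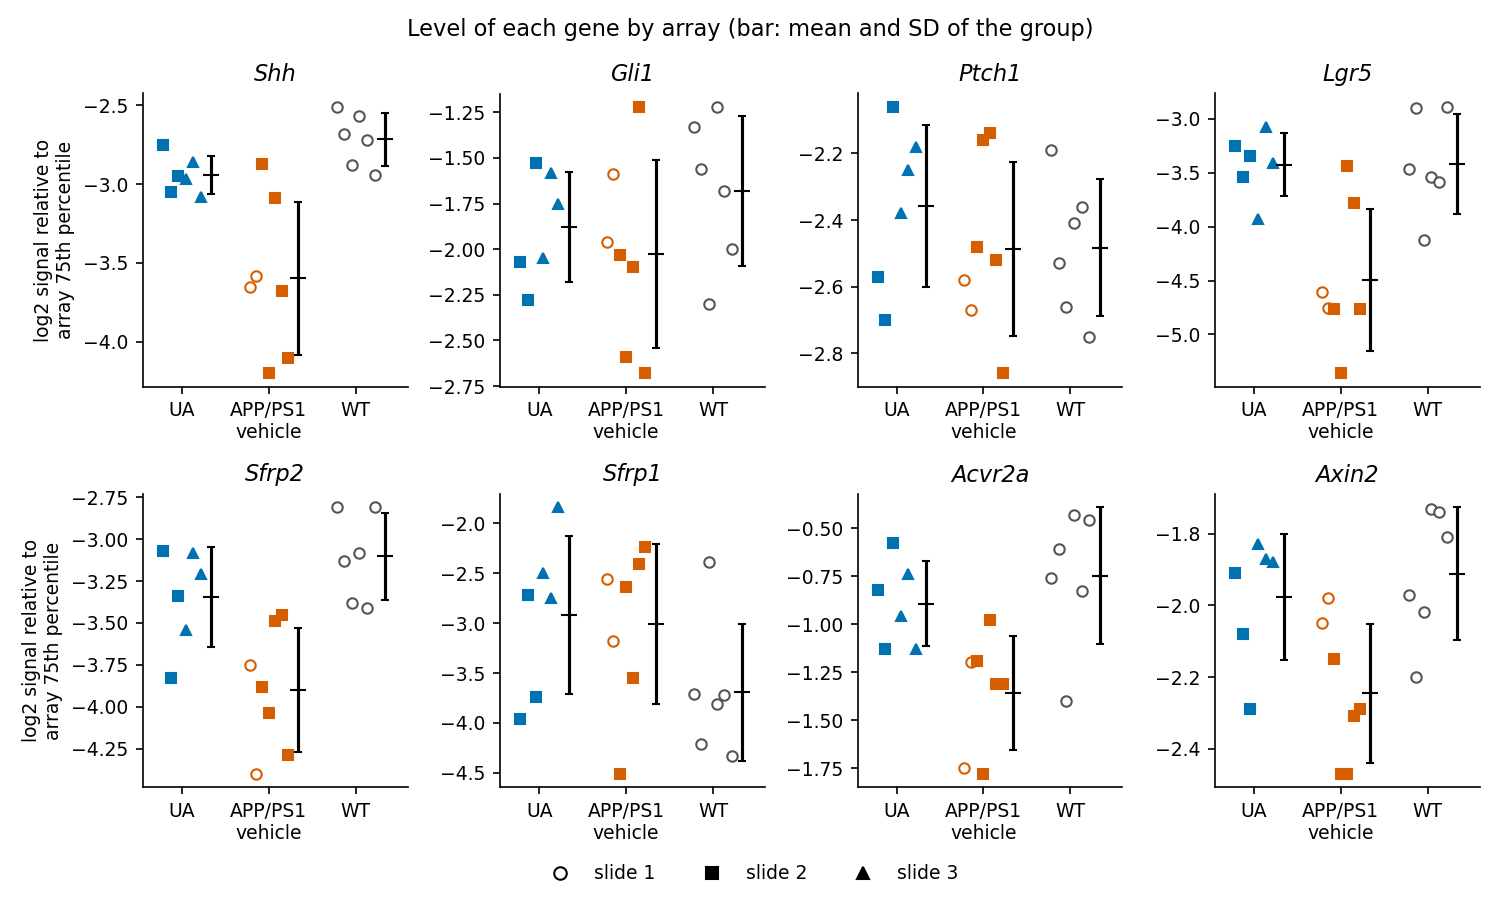
Each panel plots 1 gene, with the log2 signal relative to the array's 75th percentile on the vertical axis and the groups UA, APP/PS1 vehicle and WT on the horizontal axis. Points are arrays, marker shapes are slides, and the black bar is the group mean and SD. In Shh, 6 of 7 vehicle arrays and 4 of 6 UA arrays lie under the lowest WT array at -2.94. The UA arrays lie between -3.08 and -2.75.

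Shh, the ligand of the hedgehog pathway, had levels of -3.08 (lowest), -2.96 (median) and -2.75 (highest) in UA mice. In APP/PS1 vehicle mice the same values were -4.2, -3.65 and -2.87, and in WT mice -2.94, -2.7 and -2.51. The UA arrays lay within a narrow range at the top of the vehicle range, and 6 of 7 vehicle arrays lay below every UA array, though 1 of them, at -3.09, lay next to the lowest UA array. The mean level was -2.94 ± 0.12 in UA mice (SD, n = 6), -3.59 ± 0.49 in vehicle mice (SD, n = 7) and -2.72 ± 0.17 in WT mice (SD, n = 6). The difference of UA minus vehicle was 0.65 (SE 0.17, limma adjusted p = 0.127), with all 6 UA arrays above the vehicle mean. UA minus WT was -0.23 (SE 0.18, limma adjusted p = 0.739), with a 95% interval of -0.6 to 0.15 before adjustment. All 6 UA arrays lay below the WT mean, and 4 of them lay below the lowest WT array. Vehicle mice were 1.84-fold lower than WT mice, a log2 difference of -0.88 (SE 0.17).

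The spread of Shh among vehicle mice followed the choroid plexus split. On arrays with high choroid plexus markers Shh was -3.08 to -2.86 in UA mice (4 arrays) and -4.2 to -3.58 in vehicle mice (5 arrays), and it was -2.88 on the single WT array. On arrays with low markers it was -2.95 to -2.75 in UA mice (2 arrays), -3.09 to -2.87 in vehicle mice (2 arrays) and -2.94 to -2.51 in WT mice (5 arrays). The 5 low vehicle values were thus the 5 vehicle arrays with high choroid markers, while the 4 UA arrays with markers at 2.17 to 2.93 stayed above them. With the choroid marker level as a covariate, UA minus vehicle was again 0.65, with SE 0.12 and limma adjusted p = 0.0496, and vehicle minus WT was -0.7. In that fit 51 of 25599 genes passed between UA and vehicle, and it was the only alternative in which Shh passed. The vehicle arrays had also entered the choice of Shh. In bulk RNA, fewer cells of a type and less RNA per cell cannot be told apart.

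**Figure D2:**
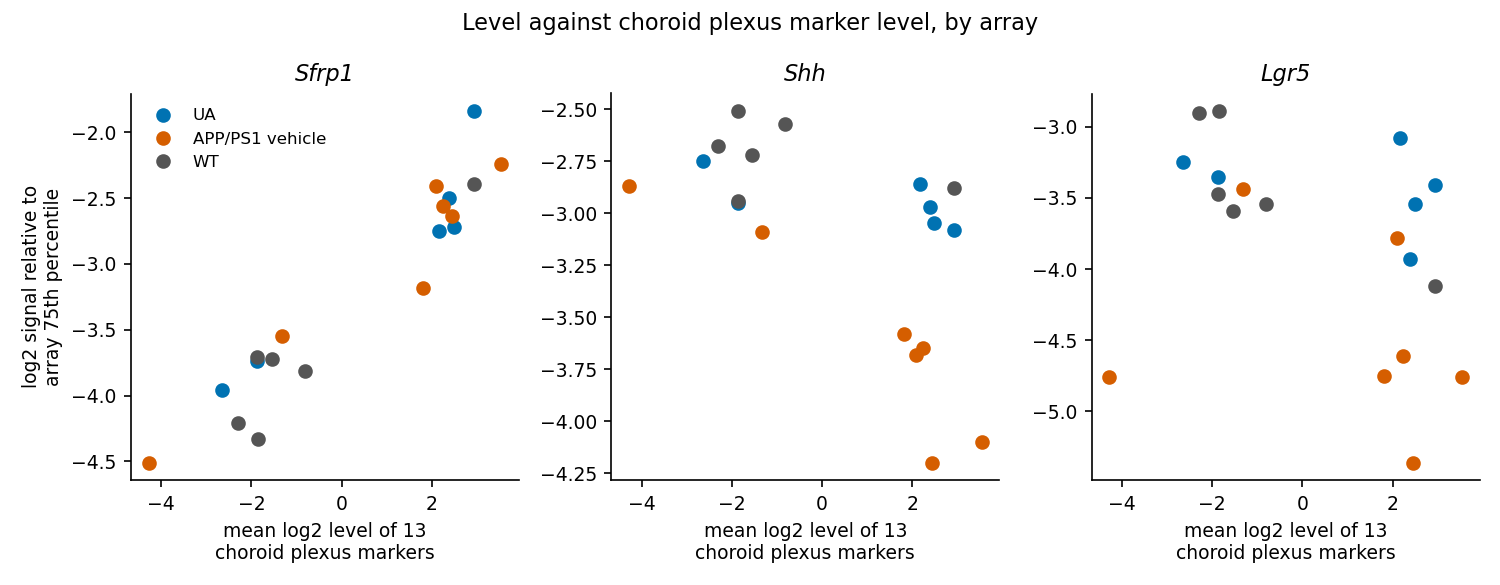
The vertical axis gives the log2 level of Sfrp1, Shh and Lgr5 and the horizontal axis the mean log2 level of 13 choroid plexus markers, with each point an array coloured by group. The 10 arrays with markers at 1.81 or above hold every Sfrp1 level above -3.55, and in Shh the 5 vehicle arrays among them lie at -3.58 or below.

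Gli1 and Ptch1, a transcription factor and the receptor of the hedgehog pathway, had smaller differences than Shh, which was not tested as such. Gli1 had levels of -2.28, -1.9 and -1.53 (lowest, median, highest) in UA mice, -2.68, -2.03 and -1.22 in vehicle mice and -2.3, -1.62 and -1.22 in WT mice. The 3 groups overlapped over most of their range. UA minus vehicle was 0.15 (SE 0.23, limma adjusted p = 0.775) and UA minus WT -0.19 (SE 0.23, limma adjusted p = 0.845). Vehicle minus WT was -0.34 (SE 0.23) over all arrays, and -0.09 on the slide that both groups share.

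Ptch1 had levels of -2.7, -2.31 and -2.06 in UA mice, -2.86, -2.52 and -2.14 in vehicle mice and -2.75, -2.47 and -2.19 in WT mice. The groups overlapped over nearly their whole range on this probe, with UA minus vehicle at 0.13 (SE 0.13, limma adjusted p = 0.642, 95% interval before adjustment -0.14 to 0.4) and vehicle minus WT at 0 (SE 0.13). A second, dimmer Ptch1 probe disagreed. It gave a vehicle minus WT difference of 0.79 (SE 0.24) and a UA minus vehicle difference of -0.36 (SE 0.24, limma adjusted p = 0.485), and it was well above background on only 5 of 6 UA, 6 of 7 vehicle and 3 of 6 WT arrays.

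Lgr5, the R-spondin receptor, had the widest gap of the 8 genes. Its levels were -3.93, -3.38 and -3.08 in UA mice, -5.36, -4.75 and -3.44 in vehicle mice and -4.12, -3.5 and -2.89 in WT mice. In vehicle mice 5 of 7 arrays lay under every UA and every WT array, while replicates 5 and 6 reached -3.44 and -3.78. The means were -3.43 ± 0.29 in UA mice (SD, n = 6), -4.49 ± 0.66 in vehicle mice (SD, n = 7) and -3.42 ± 0.46 in WT mice (SD, n = 6). UA minus vehicle was 1.07 (SE 0.27, limma adjusted p = 0.124), a difference above that of 99.9% of genes. The same vehicle arrays entered the choice of Lgr5, so this rank is not independent of that choice. UA minus WT was -0.01 (SE 0.28, limma adjusted p = 0.997, 95% interval before adjustment -0.59 to 0.57). Vehicle mice were 2.11-fold lower than WT mice. The probe was dim, averaging 111 intensity units on UA, 56 on vehicle and 144 on WT arrays, and it was well above background on 6 of 7 vehicle arrays. Arrays also differed in brightness, and with brightness as a covariate UA minus vehicle was 1.01 and vehicle minus WT -0.86. The sign of UA minus WT, which lies near 0, changed with several settings, reaching 0.14. By choroid plexus set, Lgr5 was -4.12 on the WT array with high markers and -3.59 to -2.89 on WT arrays with low markers. In vehicle mice the high and low sets overlapped, at -5.36 to -3.78 and -4.76 to -3.44. They also overlapped in UA mice, at -3.93 to -3.08 and -3.35 to -3.25.

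The secreted Frizzled-related proteins went separate ways. Sfrp2 had levels of -3.83, -3.27 and -3.07 in UA mice, -4.4, -3.88 and -3.45 in vehicle mice and -3.41, -3.11 and -2.81 in WT mice. All 7 vehicle arrays lay under all 6 WT arrays, which made Sfrp2 the only one of the 8 genes whose vehicle and WT groups did not overlap, where 0.832% of all genes were lower without overlap. In the higher direction 1.49% of all genes did not overlap. Of the 6 UA arrays, 4 lay in the WT range, above every vehicle array, and 2 lay in the vehicle range. The UA minus vehicle difference was 0.55 (SE 0.17, limma adjusted p = 0.166) and UA minus WT -0.24 (SE 0.18, limma adjusted p = 0.721). Vehicle mice were 1.73-fold lower than WT mice.

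Sfrp1 had levels of -3.96, -2.74 and -1.84 in UA mice, -4.51, -2.64 and -2.24 in vehicle mice and -4.33, -3.76 and -2.39 in WT mice. Within each group the arrays fell into a high and a low set, and these were the sets of the choroid plexus markers. Sfrp1 lay at -3.18 to -1.84 on the 10 arrays with high markers and at -4.51 to -3.55 on the 9 with low markers, without overlap. The summed signal of the 13 choroid markers ran from 18500 to 958000 intensity units on UA arrays, from 5500 to 1240000 on vehicle arrays and from 28200 to 1470000 on WT arrays, and none of the 13 was below background on every array of a group. UA minus vehicle was 0.09 (SE 0.4, limma adjusted p = 0.932) and had no settled sign, at -0.12 without UA replicate 6 and -0.16 without vehicle replicate 3. UA minus WT was 0.78 (SE 0.42, limma adjusted p = 0.628). With the choroid marker level as a covariate UA minus WT was 0.23 and vehicle minus WT was 0.13, against 0.68 without it.

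Acvr2a, the activin receptor, had levels of -1.13, -0.89 and -0.58 in UA mice, -1.78, -1.31 and -0.98 in vehicle mice and -1.4, -0.69 and -0.43 in WT mice. A single vehicle array lay inside the UA range and the other 6 below it. Mean UA levels exceeded vehicle levels by 0.47 (SE 0.16, limma adjusted p = 0.199) and the UA minus WT difference was -0.14 (SE 0.17, limma adjusted p = 0.836). Vehicle mice were 1.53-fold lower than WT mice. In 2 of the groups Acvr2a did not overlap between the choroid plexus sets, though the vehicle sets nearly touched and the high WT set was 1 array. The lowest WT array, at -1.4, was replicate 3, the WT array with high choroid markers, and the 5 WT arrays with low markers lay at -0.83 to -0.43. Vehicle arrays lay at -1.78 to -1.2 with high markers (5 arrays) and at -1.19 to -0.98 with low markers (2 arrays). In UA mice the 2 sets overlapped, at -1.13 to -0.74 and -0.82 to -0.58. A second Acvr2a probe had the same directions, with UA minus vehicle at 0.34 (SE 0.2, limma adjusted p = 0.43) and vehicle minus WT at -0.41 (SE 0.2).

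Axin2, the Wnt target and scaffold, had the smallest gap of the 5 genes that shared the order. Its levels were -2.29, -1.89 and -1.83 in UA mice, -2.47, -2.29 and -1.98 in vehicle mice and -2.2, -1.89 and -1.73 in WT mice. In UA mice 4 of 6 arrays were above every vehicle array. Mean UA levels exceeded vehicle levels by 0.27 (SE 0.1, limma adjusted p = 0.234) and the UA minus WT difference was -0.06 (SE 0.11, limma adjusted p = 0.894). Vehicle minus WT was -0.33 (SE 0.1), and -0.11 on the slide that both groups share. A second, dimmer probe gave 0.08 (SE 0.22) for vehicle minus WT and -0.03 (SE 0.22, limma adjusted p = 0.968) for UA minus vehicle.

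**Figure D3:**
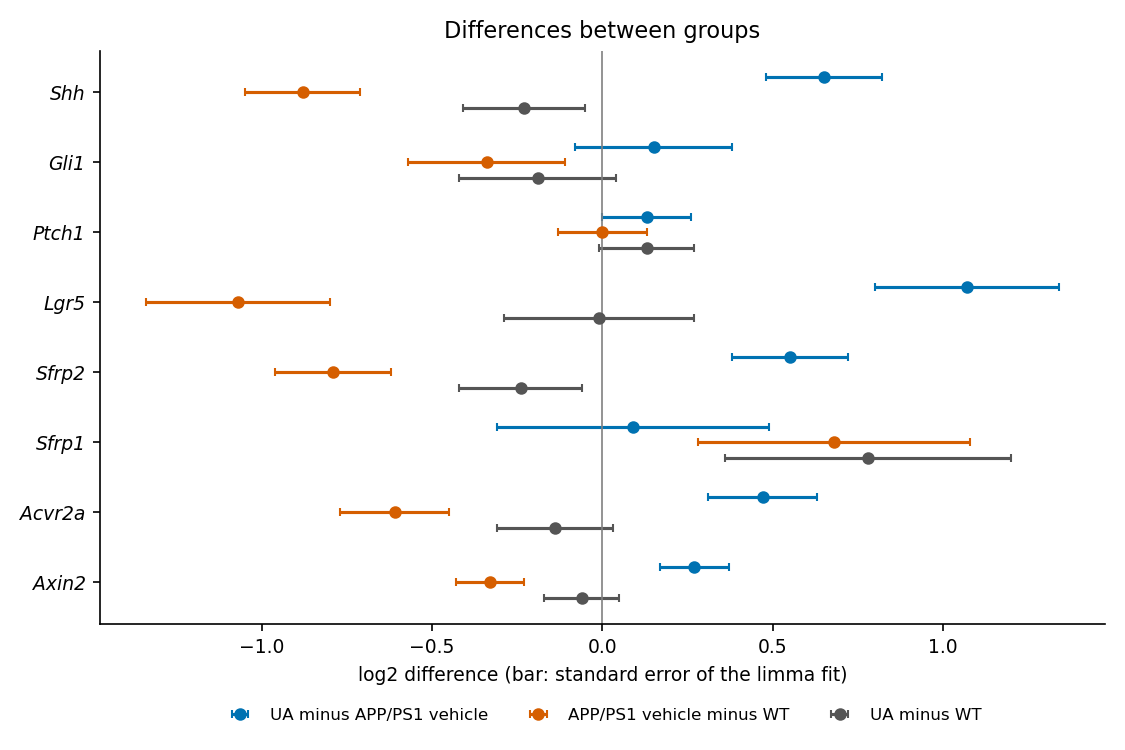
The horizontal axis gives log2 differences between group means for each gene, with UA minus APP/PS1 vehicle, APP/PS1 vehicle minus WT and UA minus WT in separate colours and bars showing the standard error. Lgr5 has the widest gaps, 1.07 for UA minus vehicle and -1.07 for vehicle minus WT, and its UA minus WT difference is -0.01.

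Slides bear on these values, because WT arrays were all on slide 1. On slide 1, 2 vehicle arrays were set against 6 WT arrays. The differences there were -0.9 for Shh, -1.26 for Lgr5, -0.97 for Sfrp2 and -0.73 for Acvr2a, each at least as large as over all arrays, and 0.82 for Sfrp1. For Axin2 and Gli1 they were smaller, at -0.11 and -0.09, against -0.33 and -0.34 over all arrays. Ptch1 had -0.14, against 0 over all arrays. Both of these vehicle arrays had high choroid plexus markers (2.24 and 1.81), as against 1 of the 6 WT arrays, so the slide 1 differences also set arrays with high markers against arrays with mostly low ones. On slide 2, 3 UA arrays were set against 5 vehicle arrays. There UA minus vehicle was 0.67 for Shh, 1.04 for Lgr5, 0.42 for Sfrp2, 0.47 for Acvr2a and 0.24 for Axin2. It was 0.16 for Gli1, -0.01 for Ptch1 and -0.41 for Sfrp1. There 1 of 3 UA arrays and 3 of 5 vehicle arrays had high choroid markers. No slide held both UA and WT arrays, so no within-slide value can be given for that comparison.

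The size of the differences depended on how background was removed. With normexp background correction of the median signal, in place of the processed signal, and an offset of 50 intensity units, UA minus vehicle was 0.09 for Shh, 0.14 for Lgr5 and 0.07 for Sfrp2. Vehicle minus WT was then -0.27, -0.17 and -0.13 for the same genes. Without the offset UA minus vehicle was 0.39, 0.66 and 0.4, and vehicle minus WT was -0.66, -0.64 and -0.45. Acvr2a, whose probe was brighter, had 0.3 for UA minus vehicle and -0.43 for vehicle minus WT with the offset, against 0.47 and -0.61 with the processed signal. The signs of these genes were the same in each case, while the folds given above belong to the processed signal.

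Few other genes of the 3 pathways passed the test. Of 157 further listed genes, 144 were tested, and none passed between UA and vehicle or between UA and WT (limma). Among all genes 0% and 0.0898% passed in these comparisons. At an unadjusted limma p under 0.05, 11 of the 144 differed between UA and vehicle, where 3961 of all 25599 genes did. Between UA and WT 9 of the 144 did, against 2215 of the 25599. Between vehicle and WT 3 of the 144 passed, or 2.08%, where 5.03% of all genes did. Of the 3, 2 were higher in vehicle mice and 1 lower, where 2.86% and 2.18% of all genes were. Their median differences were 0.06 for UA minus vehicle, 0.01 for vehicle minus WT and 0.04 for UA minus WT, close to the medians over all genes of -0.006, 0.013 and -0.008. The 3 were Disp1, which releases hedgehog ligands from the cell and was lower in vehicle mice by a log2 difference of -0.33 (limma adjusted p = 0.0483), Tgfb1, the TGF-beta ligand, higher by 0.47 (limma adjusted p = 0.00967), and Id3, a target of BMP signalling, higher by 0.47 (limma adjusted p = 0.0108). Between the same groups 5 of 7 microglial and 3 of 8 astrocyte markers were higher in vehicle mice, and their part in the differences of Tgfb1 and Id3 was not tested.

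By role, the hedgehog receptors and transducers had a median of 0 for UA minus vehicle over the 13 tested genes other than Ptch1 and Gli1. The nearest relatives and partners of the 8 genes were also read, and were picked for their role after their values had been seen. Smo, the signal transducer that Patched holds inactive, had a UA minus vehicle difference of 0.17 and a vehicle minus WT difference of 0.15. Gli2 had -0.1 and 0.27, and Gli3 had 0.06 and -0.02, all within 2 standard errors of 0. No member of this group passed the test in any of the 3 comparisons.

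The R-spondin and Lgr axis had 6 tested genes other than Lgr5, none of which passed. Lgr4, the close relative of Lgr5, had 0.14 for UA minus vehicle and -0.16 for vehicle minus WT (SE 0.089 each). Rspo2, an R-spondin ligand, had 0.76 and -0.87 (SE 0.42 each), and Rspo3 had 0.34 and -0.33 (SE 0.25 each). Of the secreted Wnt inhibitors, Frzb had 0.58 and -0.59 (SE 0.27 each, limma adjusted p = 0.315 and 0.192) and Wif1 0.52 and -0.38 (SE 0.2 each, limma adjusted p = 0.224 and 0.24). Other genes of these lists had other signs. Rspo1 had -0.29 and 0.13 (SE 0.54 each), Sfrp4 -0.19 and 0.47 (SE 0.29 each), Sfrp5 0.25 and 0.89 (SE 0.71 each) and Sostdc1 -0.09 and 1.8 (SE 1 each). The 10 tested inhibitors other than Sfrp1 and Sfrp2 had medians of 0.19 for UA minus vehicle and 0.03 for vehicle minus WT, and none passed. The comparisons share the vehicle arrays.

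Inside the cell, the 22 tested genes of the beta-catenin branch other than Axin2 had medians of 0.05 for UA minus vehicle and -0.01 for vehicle minus WT, and none passed. Ctnnb1, which encodes beta-catenin, had 0.07 and -0.09 (SE 0.067 each). Among the activin, BMP and TGF-beta receptors, 12 were tested besides Acvr2a and none passed. Acvr2b, its close relative, had 0.03 and -0.23 (SE 0.096 each, limma adjusted p = 0.907 and 0.16), and the type I activin receptor Acvr1b had 0.1 and -0.32 (SE 0.12 each, limma adjusted p = 0.693 and 0.114).

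**Figure D4:**
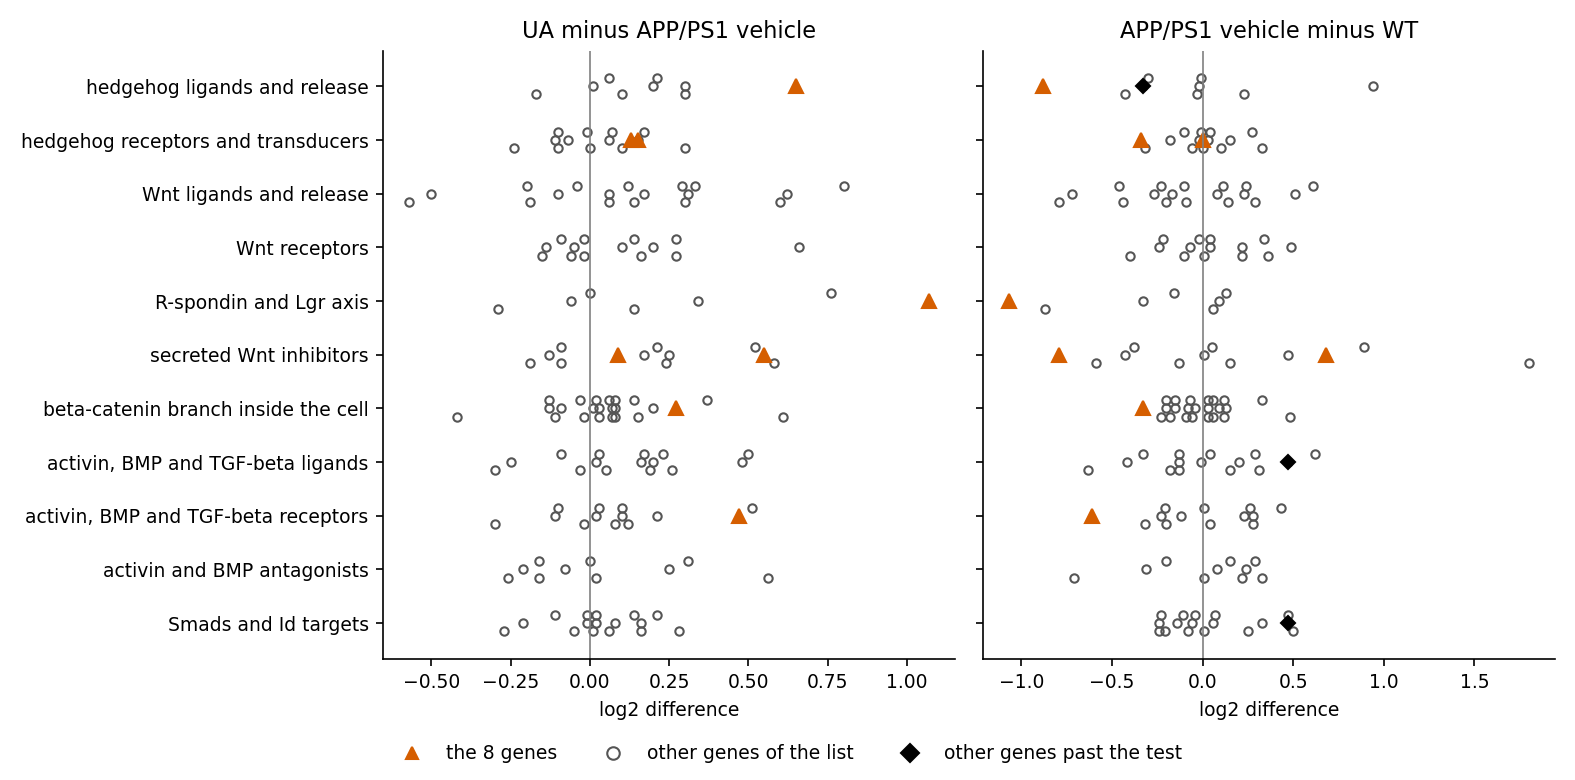
Log2 differences of every tested gene of 11 pathway lists are plotted for UA minus APP/PS1 vehicle (left) and APP/PS1 vehicle minus WT (right). Triangles are the 8 genes, circles the other genes of each list and diamonds the 3 other genes that passed the test, Disp1, Tgfb1 and Id3.

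Within groups, the genes did not vary as 1 block. Deviations from the group means over the 19 arrays gave a Pearson r of 0.69 between Lgr5 and Sfrp2, 0.64 between Lgr5 and Acvr2a and 0.49 between Shh and Acvr2a. Sfrp1 ran against Shh (r = -0.65) and Acvr2a (-0.7), and less so against Lgr5 (-0.35) and Sfrp2 (-0.26). Axin2 had r from -0.32 (to Ptch1) to 0.2 (to Gli1), and Gli1 and Ptch1 had r of 0.41 and 0.26 to Shh. These are descriptions over arrays that share slides and the choroid plexus split.

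By the same measure over 14895 genes, the patterns most like each gene were read. Those for Shh were Asb13 (r = 0.91), Zswim4 (0.9) and Barx2 (0.89). For Gli1 they were Atp13a5 (r = 0.83), Mfge8 (0.82) and Rhbdf1 (0.81), and for Ptch1 Zfp458 (r = 0.79), Ubn1 (0.79) and Scaf8 (0.77). For Lgr5 they were Capn5, Creb3l3 and Frzb, each at r = 0.86, the last of them one of the listed Wnt inhibitors. For Sfrp2 they were Lypd1 (r = 0.89), Rab9b (0.85) and Gdpd1 (0.84), and for Acvr2a Septin9 (r = 0.91), Aloxe3 (0.89) and Plxna3 (0.88). Sfrp1 had the closest neighbours of all, with Pltp at r = 0.97 and Cox8b and Slc16a12 at 0.96. Axin2 had the loosest, with Mex3a and Npat at r = 0.72 and Xpc at 0.71.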

How the data were processed

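Hippocampal RNA of 19 mice was labelled with Cy3 (green) and put on Agilent mouse arrays, per the labels' protocols. The deposited files give the intensity of each spot as written by Agilent Feature Extraction 12.0.3.1 under a 2-colour protocol, per the file headers, and the processed green intensity is background-subtracted and dye-normalized within the array. The labels describe no red sample, and red values were not used. The authors' deposited value table holds a score, which equals the log10 processed green intensity, centred and scaled by its SD over each array, within 0.005. Its column medians ran from -0.19 to -0.08.

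Of 62976 spots, 3671 control spots and spots marked non-uniform (0 to 172 an array) were left out, and spots of a probe were averaged into 56605 probes. Intensity was scaled to each array's 75th percentile and log2 taken. A probe was kept if well above background on at least 6 arrays. Probe accessions, stripped of version, were looked up in a RefSeq table (GRCm38.p6), which gave 32994 probes a symbol and 23611 none. The brightest probe stood for a gene, and 25599 genes were tested, 16103 with a symbol. Of the probes on an array, 51.4% to 59.4% were well above background. Precision is limited by how many arrays each group had.

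Groups were compared with limma 3.58.1 in R 4.3.3 (lmFit, eBayes, 1 fit, Benjamini-Hochberg), tested on simulated data. Python 3.11.15, pandas 2.3.3, numpy 2.4.6 and matplotlib 3.10.9 did the rest. Alternatives were another background correction (normexp on the median signal, since no mean signal was in the files), normalization, filter, probe rule, covariate, slide and replicate block, and left-out arrays. The genes and lists were chosen with earlier results of these data known. The rule for named genes took the 8 genes, up to 4 passing genes per pathway list, the 3 genes of most similar pattern for each gene, and Prnp. Further relatives and partners of the 8 genes were named outside it, for their role, after their values had been seen. Replicate numbers did not pair samples across groups (correlations of deviations from -0.55 to 0.39 over the same-numbered pairs).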

Additional observations from a re-analysis of the deposited data

Results flagged for a closer look

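Sfrp1 stood apart on 1 WT array, replicate 3, at a level of -2.39, when the other 5 WT arrays lay between -4.33 and -3.71. Its gap to the nearest of them was 0.68 of the range of the WT group. This was the only such array among 24 groups of values tested (8 genes in 3 groups), and chance flags about 1 in 20 groups. The same array was the only WT array with high choroid plexus markers, at 2.93.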

How the results depend on the processing

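Signs of UA minus vehicle for Shh, Lgr5, Sfrp2, Acvr2a and Axin2 were the same under all alternatives tried. Leaving aside left-out arrays and the deposited score table, whose differences are in units of SD, they ran over 0.09 to 0.73, 0.14 to 1.24, 0.07 to 0.63, 0.3 to 0.53 and 0.08 to 0.3. Only Shh crossed the threshold, with choroid marker level as a covariate (0.65, limma adjusted p = 0.0496, and 0.0496 to 0.9 over the alternatives). In that fit 51 of 25599 genes passed. Without single arrays its adjusted p was 0.0754 to 0.25 and that of Lgr5 0.0582 to 0.236. Vehicle minus WT moved with normexp correction to -0.27 for Shh, -0.17 for Lgr5 and -0.13 for Sfrp2, and to -0.45 for Sfrp2 without the offset, an alternative added after seeing the data, as was array brightness. Without single arrays these were -1 to -0.78, -1.25 to -0.93 and -0.87 to -0.71.

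Signs turned for UA minus vehicle of Gli1 under normexp (-0.01), of Ptch1 under normexp (-0.01), the mean of its probes (-0.11), the slide block (-0.01) and the shared slide (-0.01), and of Sfrp1 under normexp (-0.12), slide block (-0.41), shared slide (-0.41), brightness (-0.05) and without UA replicate 6 (-0.12) or vehicle replicate 3 (-0.16). For UA minus WT they turned under the slide block for Gli1 (0.08), Ptch1 (-0.16) and Axin2 (0.14), and for Lgr5 with the choroid covariate (0.14), brightness (0.14), normexp without offset (0.01) and without UA replicates 2 (0.01) or 4 (0.09) or WT replicates 2 (0.1) or 6 (0.1), with -0.15 to 0.1 over all left-out arrays. None of these passed the test, and the cause was not tested.

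Genes called between UA and vehicle numbered 0, also with normexp without offset, but 1953 with normexp and its offset (116 higher, 1837 lower) and 51 with the choroid covariate. Between vehicle and WT 1288 were called, against 2102 with normexp, 706 without its offset, 804 from the deposited table (323 higher, 481 lower, against 731 and 557), 373 with no filter, 78 with slide as a block, 22 on the shared slide, 1969 with sex read from the arrays as a covariate and 191 with brightness. Without 1 array it was 403 to 2199, lowest without WT replicate 6 and highest without WT replicate 3. It was 2002 without vehicle replicate 5, and 552, 824, 709 and 743 without vehicle replicates 1, 2, 6 and 7, and 459, 669 and 549 without WT replicates 2, 4 and 5. Between UA and WT 23 were called, 41 when detected on all arrays of a group, 38 with the mean of probes, 4 with the slide block and 16 to 37 without 1 array (37 without UA replicate 5).

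With the replicate number as a block, 338 genes (276 higher, 62 lower) were called between vehicle and WT, 12 between UA and WT and 0 between UA and vehicle. The numbers do not pair the samples, as the same-numbered array was the best match for 2, 0 and 0 of 6 pairs in UA against vehicle, vehicle against WT and UA against WT.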
